A study of Mus musculus with 26 samples.

Results

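IgA heavy-chain clonotypes of skin were set against those of spleen. All rows with an IgA constant gene were kept from the 4 skin and 4 spleen replicates, the 2 technical libraries of each replicate were added, and a clonotype was 1 combination of V gene, J gene and junction nucleotides. The junction is the stretch from the conserved cysteine codon to the conserved tryptophan codon, and the CDR3 is what lies between them. This gave 324 IgA clonotypes in skin and 66115 in spleen, together 66439 of the 114636 IgA clonotypes and 1674869 clonotypes of any isotype in the series, each summed over replicates. A copy is 1 unit of the deposited count of a sequence.

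The mice were wild type and all groups carried the same treatment, association with the skin commensal Staphylococcus epidermidis (written "S. epidermidies" in the labels), so no comparison with untreated mice could be made. The series concerns germinal centres in skin and how host and microbiota interact there. The tissue of each library was taken from its title, because the tissue field reads ear skin for every library. Age, sex and pooling are not given in the labels. Nor do the labels say whether a skin and a spleen replicate of the same number came from the same mouse. The titles call the replicates biological, as against technical, but do not say that they are separate animals. The p-values therefore measure only the spread between these samples. The libraries hold heavy-chain transcripts only, so the labelled tissue and the labelled B cells could not be checked against marker genes.

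IgA is made after a B cell exchanges its first constant gene for Igha by class switching, and plasma cells secrete it at mucosal and other epithelial surfaces. In germinal centres, somatic hypermutation changes bases of the rearranged V gene, most visibly in the complementarity-determining regions that contact antigen, and cells with better binding are kept. The junction, formed when V, D and J segments are joined, marks the descendants of 1 B cell, and a plasma cell holds far more heavy-chain RNA than a resting B cell. In bulk RNA, fewer cells of a clone and less RNA per cell cannot be told apart.

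The 3 IgA clonotypes with the most copies in each skin replicate, among those found in both technical libraries, are shown because they held much of the IgA of their replicate. Capitals mark the conserved first and last codons of the junction, read 5′ to 3′ from the deposited tables.
skin 1, IGHV14-3 IGHJ2: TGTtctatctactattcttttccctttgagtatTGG
skin 1, IGHV9-3 IGHJ3: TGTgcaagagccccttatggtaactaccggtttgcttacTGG
skin 1, IGHV2-2 IGHJ4: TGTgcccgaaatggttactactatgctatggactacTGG
skin 2, IGHV1-7 IGHJ3: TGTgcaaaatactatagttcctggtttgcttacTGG
skin 2, IGHV5-6 IGHJ4: TGTgcaaggagaactgctatggactacTGG
skin 2, IGHV1-26 IGHJ4: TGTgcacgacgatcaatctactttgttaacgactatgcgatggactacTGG
skin 3, IGHV9-3 IGHJ1: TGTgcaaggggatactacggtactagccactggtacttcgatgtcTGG
skin 3, IGHV1-53 IGHJ4: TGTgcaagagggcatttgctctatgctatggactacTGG
skin 3, IGHV9-3 IGHJ2: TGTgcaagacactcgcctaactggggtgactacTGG
skin 4, IGHV14-1 IGHJ2: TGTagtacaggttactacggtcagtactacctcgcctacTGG
skin 4, IGHV1-50 IGHJ2: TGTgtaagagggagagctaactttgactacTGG
skin 4, IGHV1-42 IGHJ3: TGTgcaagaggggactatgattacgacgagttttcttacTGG
The clonotype with the most copies in each spleen replicate, chosen by the same rule, is shown for comparison.
spleen 1, IGHV1-26 IGHJ3: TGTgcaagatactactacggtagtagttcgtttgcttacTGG
spleen 2, IGHV3-6 IGHJ1: TGTgctgactatggtaacctcgatgtcTGG
spleen 3, IGHV1-76 IGHJ1: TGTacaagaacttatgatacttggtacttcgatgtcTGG
spleen 4, IGHV1-26 IGHJ2: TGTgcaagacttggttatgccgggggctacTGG
In spleen 1 a clonotype with 3164 copies was larger still but was found in 1 technical library only. The 12 skin junctions were all different, used 10 V genes and all 4 J genes, and coded CDR3s of 8 to 15 amino acids. Each held 9.51% to 32.9% of the IgA copies of its replicate. IGHV9-3 was the V gene of 3 of them, 1 in skin 1 and both others in skin 3. In the GRCm38.p6 annotation of RefSeq, which pairs with the mm10 build named in the submitters' processing notes, Ighv9-3 is a V segment at chr12:114140692-114141122, Ighv14-3 lies at chr12:114059845-114060273 and Ighv1-7 at chr12:114538495-114538788. The constant gene Igha is at chr12:113256204-113260236.

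Skin IgA was carried by a handful of clonotypes and spleen IgA by many. Skin replicates 1 to 4 held 2229, 5417, 3028 and 3170 IgA copies in 50, 97, 85 and 92 clonotypes. Spleen replicates 1 to 4 held 49785, 415794, 130922 and 245211 IgA copies in 3427, 33515, 11670 and 17503 clonotypes. Skin clonotypes therefore averaged 34.5 to 55.8 copies each and spleen clonotypes 11.2 to 14.5. Because depth differed, values below are means over 100 random draws of 2229 IgA copies from each replicate, the smallest total, unless all copies are named. Copies are not cells, and equal copies need not mean equal numbers of cells.

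At 2229 copies the skin replicates held 50, 56.3, 71.1 and 74.9 distinct IgA clonotypes, and the spleen replicates 685, 973, 872 and 864. Every spleen value lay far above every skin value. The means were 63.1 ± 11.9 in skin and 848 ± 120 in spleen (SD, n = 4 each), 13.5 times as many in spleen, a difference of -785 clonotypes (95% interval -923 to -610). The exact two-sided permutation test gave p = 0.0286, the smallest that 4 against 4 can give, and an adjusted p of 0.0357 over the 5 clone size measures (Benjamini-Hochberg). This test treats the samples as unpaired. If the replicate numbers pair skin with spleen, the smallest exact permutation p is 0.125 and no clone size measure can pass. A lineage joins clonotypes of a replicate that match in V gene, J gene and CDR3 length and whose CDR3s have at least 85% of nucleotides in common. They numbered 34.1 ± 7.83 in skin and 512 ± 71.0 in spleen (SD, n = 4 each, no overlap, exact permutation adjusted p = 0.0357).

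The 10 largest clonotypes held 93.4%, 94.6%, 84.5% and 77.1% of the drawn IgA copies in skin 1 to 4. In spleen 1 to 4 they held 26.0%, 19.2%, 17.2% and 17.4%. Skin was higher in every replicate, by 67.4 percentage points on average (95% interval 51.2 to 77.4; exact permutation p = 0.0286, adjusted p = 0.0357). The effective number of clonotypes, the inverse of the summed squared copy shares, was 5.85, 5.19, 9.38 and 14.2 in skin and 85.5, 168, 153 and 173 in spleen. That measure differed by -136 (95% interval -167 to -71.2; exact permutation adjusted p = 0.0357), but its adjusted p was 0.0571 to 0.0714 in the exact permutation test without any 1 skin replicate. The largest clonotype alone, a measure added after the values were seen, held 31.2%, 32.9%, 24.0% and 11.8% of skin copies and 6.37%, 3.76%, 5.23% and 3.67% of spleen copies. Those groups did not overlap, and the exact permutation p of 0.0286 became 0.0571 after adjustment over 2 added measures. Its exact permutation adjusted p was 0.0286 under 5 alternatives, with differences of 17.5 to 24.6 points. The unadjusted p was already the smallest possible, so this turned on the other added measure, clonotypes per lineage. That measure was left out or also reached the smallest p there, so the 5 alternatives add nothing on the largest clonotype.

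**Figure D1:**
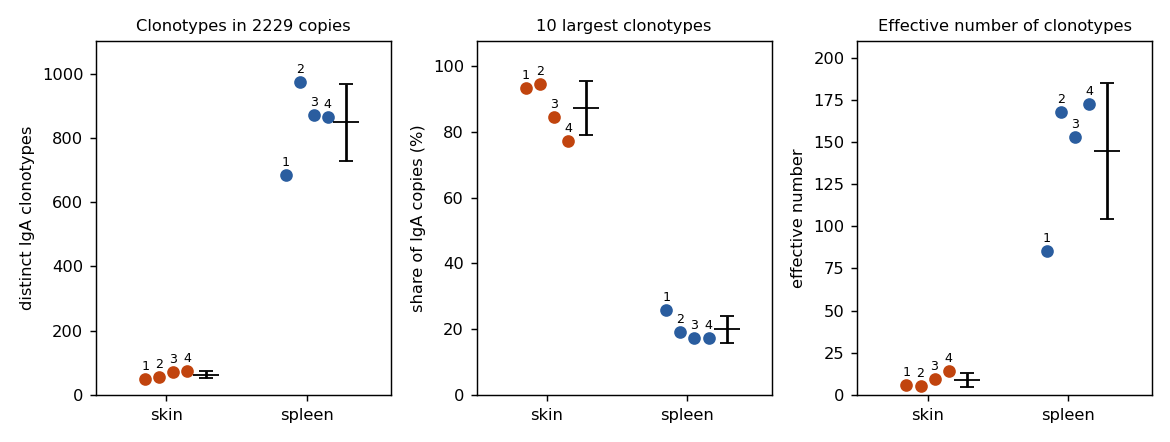
Distinct IgA clonotypes, share of IgA copies in the 10 largest clonotypes (%) and effective number of clonotypes at 2229 copies per replicate; points are replicates with their numbers, bars the mean ± SD (n = 4). In all 3 panels the 4 skin points lie apart from the 4 spleen points, with 50 to 74.9 clonotypes in skin and 685 to 973 in spleen.

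Over all copies, 2, 2, 4 and 5 clonotypes were enough to reach 50% of the IgA copies of skin 1 to 4. In spleen 1 to 4 that took 54, 129, 99 and 93 clonotypes. For 90% of the copies, skin needed 9, 7, 14 and 18 clonotypes and spleen 774, 3226, 1856 and 1858. Skin 1 and 2 were thus more concentrated than skin 3 and 4, and spleen 1 more than the other spleens. The largest lineage held 31.2%, 33.3%, 24.3% and 12.2% of skin IgA copies and 6.36%, 8.17%, 8.19% and 7.81% of spleen IgA copies.

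**Figure D2:**
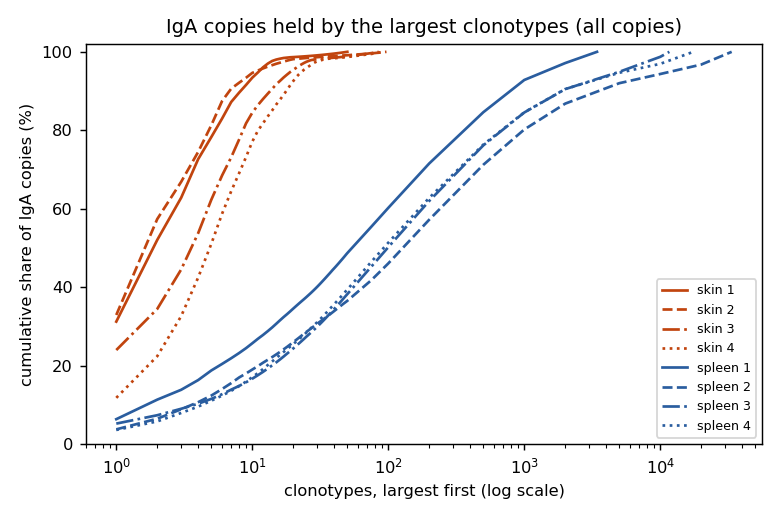
Cumulative share of IgA copies (%) against the number of clonotypes counted from the largest (log scale), 1 line per replicate, all copies. Skin lines reach 50% within 2 to 5 clonotypes and spleen lines within 54 to 129.

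Clonotypes with a single copy made up 62.0%, 57.0%, 57.6% and 53.3% of skin clonotypes and 60.3%, 69.8%, 66.5% and 66.8% of spleen clonotypes in the draws. The ranges overlapped and the difference of -8.38 points did not pass (95% interval -16.5 to 1.68; exact permutation adjusted p = 0.0571). Skin IgA thus combined a few large clonotypes with a tail in which most clonotypes had 1 copy.

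Technical libraries bear on how far copies can be trusted. Of skin clonotypes, 20.0%, 14.4%, 16.5% and 18.5% were found in both technical libraries of their replicate, and these held 91.1%, 95.5%, 84.9% and 84.6% of the copies. Of skin clonotypes with 10 or more copies, 50% to 64.3% were found in both, against 71.0% to 98.6% in spleen. In skin 4 the largest clonotype, IGHV14-1 with IGHJ2, had 368 IgA copies in technical library 1 and 6 in technical library 2, while all of its 319 IgM copies were in technical library 2. It was the only 1 of the 12 named skin clonotypes with IgM copies. The IGHV14-3 clonotype of skin 1 held 13.1% of IgA in technical library 1 and 48.3% in technical library 2, and the effective number of skin 1 was 8.61 and 3.403 in those libraries. Of the 12 named skin clonotypes, 6 had shares more than 1.5 times apart between their technical libraries. In technical library 1 alone the 10 largest clonotypes held 83.7% to 95.6% of skin and 17.9% to 23.4% of spleen copies, and in technical library 2 alone 77.6% to 98.8% and 17.9% to 30.0%. Among clonotypes found in both libraries, skin had only 10 to 17 in the draws, so the share of the 10 largest says little there.

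Each of the 12 named skin clonotypes was also present in the spleen of the same number, at a much smaller share. The largest in skin 1, IGHV14-3 with IGHJ2, had 696 of 2229 skin copies (31.2%) and 658 copies in spleen 1 (1.32%, rank 8). The largest in skin 2, IGHV1-7 with IGHJ3, had 1783 copies (32.9%) in skin, 89 in lymph node 2 and 2405 in spleen 2 (0.578%, rank 21). The largest in skin 3, IGHV9-3 with IGHJ1, had 726 copies (24.0%) in skin and 119 in spleen 3 (0.0909%, rank 188). The IGHV14-1 clonotype of skin 4 had 374 copies (11.8%) in skin and 20 in spleen 4 (0.00816%, rank 1157). A high rank in skin therefore did not go with 1 fixed rank in spleen.

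All 12 named skin clonotypes were found in the same-number spleen, with 0 copies in the other spleens, and ranked 8 to 1157 there. Their share of IgA was 13.8 to 1447 times as high in skin as in that spleen, with a median of 175. The highest value is that of the IGHV14-1 clonotype of skin 4, whose share was 2521 times as high by technical library 1 and 53.3 times by technical library 2; without it the highest was 1152 and the median 86.3. The clonotypes were chosen for being large in skin, so these folds are a description. IGHV1-53 with IGHJ4 of skin 3 was the nearest to even, with 317 skin copies (10.5%), 685 copies in lymph node 3 and 993 in spleen 3 (0.758%). Of all skin IgA clonotypes, 105 of 324 were found in the same-number spleen, and 5 matches were found in the other-number spleens. Of the 40 that were among the 10 largest of their replicate these counts were 34 and 0, and 0 skin clonotypes were found in another skin replicate. The clonotypes found in the same-number spleen held 71.1% of IgA copies in skin 1 and 92.0% to 93.8% in the other skin replicates.

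**Figure D3:**
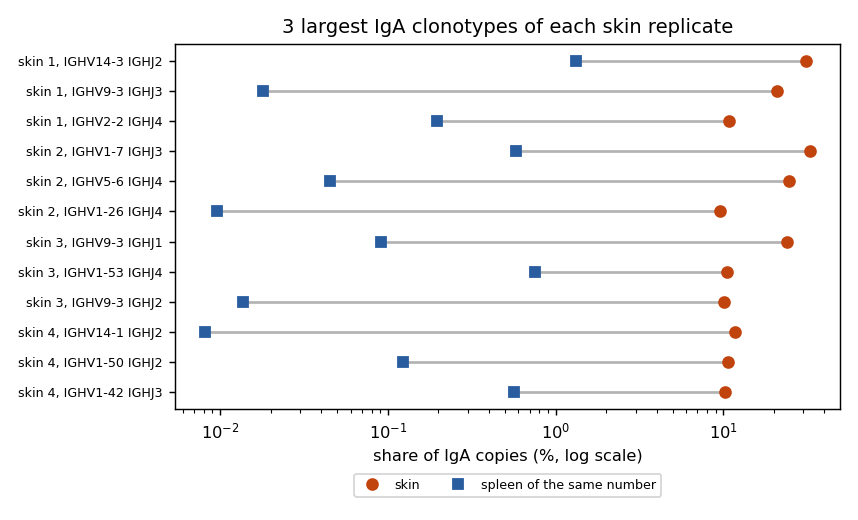
Share of IgA copies (%, log scale) of the 3 largest IgA clonotypes of each skin replicate in skin (circles) and in the spleen of the same number (squares). All 12 circles lie between 9.51% and 32.9%, and all squares at 1.32% or below.

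V-segment mismatch, the share of aligned V nucleotides that differ from the assigned V gene, is the measure of somatic mutation in these tables. The reads begin at CDR2, so CDR1 and the frameworks before it are not covered, and the median aligned length was 144 nucleotides. Each clonotype counted once, mean mismatch was 2.59%, 4.06%, 2.92% and 3.999% in skin 1 to 4. In spleen 1 to 4 it was 2.92%, 3.09%, 3.20% and 3.12%. The skin replicates lay on both sides of the spleen values, and the difference of 0.311 points did not pass (95% interval -0.608 to 1.14; exact permutation p = 0.429, adjusted p = 0.429 over 3 measures).

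Each lineage counted once, the groups separated. Skin lineages then had 3.29%, 3.58%, 3.25% and 3.82% mismatch and spleen lineages 2.12%, 2.12%, 2.503% and 2.44%. Every skin value was above every spleen value, with a difference of 1.19 points (exact permutation p = 0.0286, adjusted p = 0.0429). Lineages with 5% or more mismatch likewise made up 29.6%, 32.5%, 29.3% and 30.6% in skin and 13.6%, 11.3%, 13.8% and 15.5% in spleen (exact permutation p = 0.0286, adjusted p = 0.0429). Counted by clonotype, 16%, 37.1%, 24.3% and 32.9% of skin and 21.9% to 24.2% of spleen clonotypes passed 5% (exact permutation adjusted p = 0.429), so the result depends on this choice. Under the other alternatives neither measure passed. Lineages were formed on all copies before the draw, from 50 to 97 clonotypes per skin replicate and 3427 to 33515 per spleen replicate. Counting lineages instead of clonotypes moved mean mismatch from 3.08% to 2.29% in spleen and from 3.39% to 3.48% in skin. How much of the separation comes from this unequal depth was not tested.

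**Figure D4:**
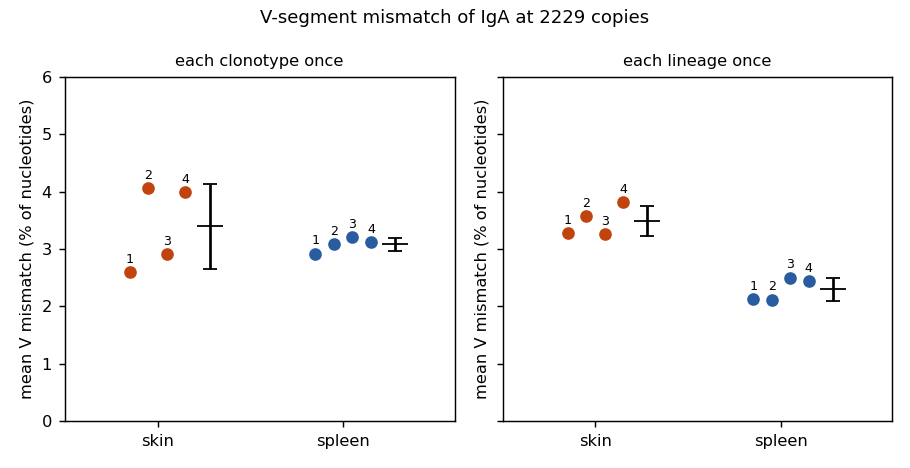
Mean V-segment mismatch (% of aligned V nucleotides) at 2229 copies per replicate, with each clonotype counted once (left) and each lineage counted once (right); points are replicates with their numbers, bars the mean ± SD (n = 4). The groups overlap on the left and are apart on the right, where skin lies at 3.25% to 3.82% and spleen at 2.12% to 2.503%. Lineages were formed on all copies, before the draw.

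Unmutated clonotypes, with at most 0.5 mismatches on average, were 18.0%, 13.8%, 19.2% and 14.9% of skin and 27.8%, 23.9%, 16.3% and 18.4% of spleen clonotypes. The difference of -5.11 points did not pass (95% interval -13.96 to 2.91; exact permutation p = 0.143, adjusted p = 0.429). The named skin clonotypes ranged from 0 to 11 mismatches in their most frequent sequence. The IGHV9-3 clonotypes of skin 1 and skin 3 were the 3 of 12 at 0. At the other end, the IGHV14-3 clonotype of skin 1 had 11 mismatches in 142 aligned nucleotides and the IGHV1-50 clonotype of skin 4 had 11 in 144.

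The 10 largest clonotypes averaged 2.70%, 5.16%, 2.58% and 4.14% mismatch in skin and 3.38%, 4.89%, 4.36% and 4.14% in spleen. Unmutated clonotypes held 36.5%, 8.01%, 38.9% and 4.16% of IgA copies in skin 1 to 4, against 33.3%, 25.5%, 10.9% and 13.8% in spleen. Skin replicates 1 and 3, where IGHV9-3 clonotypes were large, thus stood above skin 2 and 4. The regions could be told apart in 99.257% to 100% of rows per replicate, and these measures were added after the values were seen. CDR2 mismatch was 2.97%, 6.87%, 4.49% and 7.47% in skin and 4.21% to 4.73% in spleen, and framework 3 mismatch 2.29% to 3.28% and 2.59% to 2.82%. CDR2 thus carried more mismatches per base than framework 3 in both tissues, 1.87 ± 0.472 times as many in skin and 1.63 ± 0.0795 times in spleen (SD, n = 4 each). That ratio did not differ beyond its spread (95% interval of the difference -0.395 to 0.860; exact permutation adjusted p = 0.657 over 4 measures). Replacement changes were 71.4% ± 6.64 of mismatches in skin and 73.6% ± 1.87 in spleen (exact permutation adjusted p = 0.657).

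Around the large clonotypes lay small near copies. The lineage of the largest clonotype of skin 2 held 12 further clonotypes with 20 copies in all, beside 1783 of the main junction. The 3 with the most copies are shown with the differing base in capitals and positions counted from 1 at the 5′ end of the junction.
variant 1 of skin 2, IGHV1-7 IGHJ3: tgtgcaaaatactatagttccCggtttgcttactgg
variant 2 of skin 2, IGHV1-7 IGHJ3: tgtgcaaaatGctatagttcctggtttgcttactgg
variant 3 of skin 2, IGHV1-7 IGHJ3: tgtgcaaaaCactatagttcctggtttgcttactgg
They carry T22C, A11G and T10C and had 4, 3 and 2 copies. None of the 12 variants was found in both technical libraries. For the 12 named skin clonotypes together, 53 clonotypes differed at 1 or 2 junction bases, of which 39 had a single copy and 2 were found in both technical libraries. Of their 64 base changes, 62 were transitions, changes within purines or within pyrimidines. Around the 4 named spleen clonotypes, 34 of 114 such variants were found in both libraries and 140 of 159 base changes were transitions. The clonotypes of spleen 3 and 4 had 56 and 47 of these variants, with 14 and 19 in both libraries. Those of spleen 1 and 2 had 10 and 1, with 1 and 0 in both. The named clonotypes also differed in depth, with 33799 copies in spleen and 7404 in skin.

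Clonotypes per lineage, an added measure, were 1.85, 2.02, 1.86 and 1.74 in skin and 1.55, 1.595, 1.73 and 1.77 in spleen (exact permutation adjusted p = 0.0571). The measure passed with skin higher among clonotypes with no copies of another isotype and without skin 4 (differences of 0.30 and 0.25, exact permutation adjusted p = 0.0286 each). It was lower in skin when single-copy clonotypes were left out (1.25 in skin against 1.68 in spleen) and among clonotypes found in both libraries (1.12 against 1.72). Both of those filters act on all copies before the draw, and skin is drawn nearly whole, so they remove the near copies of skin and few of those drawn in spleen; they do not test the direction.

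No difference in CDR3 make-up passed the test. Length was 12.6, 11.5, 11.7 and 11.7 amino acids in skin and 11.9, 11.7, 11.9 and 12.1 in spleen, a difference of -0.02 (95% interval -0.551 to 0.860; exact permutation p = 1). None of the 9 features passed in the exact permutation test, and 0 had an unadjusted p under 0.05. Net charge was nearest, -0.280, -0.0924, -0.128 and -0.0747 per CDR3 in skin and -0.358, -0.377, -0.387 and -0.174 in spleen (exact permutation p = 0.0571, adjusted p = 0.386 over 9 features). Arginine, a positively charged residue, was 10.4% ± 0.397 of CDR3 residues in skin and 9.22% ± 0.693 in spleen (SD, n = 4 each; exact permutation p = 0.0857, adjusted p = 0.386). The 95% interval of the charge difference was -0.106 to 0.312 and that of arginine -0.170 to 2.26 points. Tyrosine, which is common in antibody binding sites, was 15.6% to 24.1% in skin and 17.6% to 19.7% in spleen.

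J gene shares were spread widely among skin replicates. IGHJ4 was 32.0%, 51.4%, 31.6% and 15.1% of skin clonotypes and 18.6%, 23.7%, 28.9% and 18.7% of spleen clonotypes. IGHJ1 was 10.0%, 0%, 25.3% and 22.2% in skin and 14.9% to 22.8% in spleen. IGHJ2 was 18.4% to 45.4% in skin and 24.8% to 34.0% in spleen, and IGHJ3 was 17.3% to 30.2% and 25.4% to 34.0%. None of the 4 passed in the exact permutation test (lowest p = 0.114 for IGHJ3, adjusted p = 0.457; 95% interval of its difference -16.7 to 4.85 points).

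Of the 9 V families tested, 0 passed in the exact permutation test and 0 had an unadjusted p under 0.05. IGHV1, the large J558 family, was 52.0%, 69.3%, 71.9% and 51.6% of skin clonotypes and 65.9% to 72.9% of spleen clonotypes. IGHV9 was 12.0%, 3.94%, 15.3% and 7.13% in skin and 2.49% to 4.92% in spleen (difference 5.66 points, 95% interval -0.978 to 12.8; exact permutation p = 0.114, adjusted p = 0.707). IGHV5 ranged from 0% to 16.5% in skin and 4.19% to 8.16% in spleen, and IGHV8 from 0% to 12.0% and 1.45% to 3.29%. IGHV14 was 3.91% to 10.4% in skin and 3.29% to 9.86% in spleen, and IGHV2 was 0% to 8.0% and 2.62% to 4.67%. IGHV3 was 0% to 6.11% and 2.07% to 4.16%, IGHV10 was 0% to 8.0% and 0.209% to 1.33%, and IGHV6 was found in 1 of 4 skin replicates.

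V genes were tested on clonotypes per gene with edgeR's quasi-likelihood test. Of 138 V genes in the files, 36 reached the minimum mean share of 1% and were tested. At an adjusted p under 0.05, 0 were called higher (0%) and 0 lower (0%) in skin, and 7 had an unadjusted p under 0.05. The tested genes had a median of 6 clonotypes over all skin replicates and a median SE of 1.10 on the log2 scale, so a count of 0 does not show that usage was alike. DESeq2 called 7, all lower in skin, and its scaling put the median log2 fold change of the tested genes at -0.52, against 0.15 in edgeR. The 7 were IGHV1-22, IGHV1-55, IGHV1-72, IGHV1-75, IGHV1-76, IGHV1-80 and IGHV1-82. Without any filter edgeR called 2, IGHV1-7 and IGHV13-2, both higher. Without 1 skin replicate it called 1 without skin 1 (IGHV1-7, higher), 2 without skin 2 (IGHV1-42 and IGHV9-3, higher), 1 without skin 3 (IGHV1-55, lower) and 2 without skin 4 (IGHV1-7 and IGHV1-84, higher). IGHV1-7, IGHV1-42 and IGHV1-84 held 0.518%, 0.875% and 0.846% of spleen clonotypes and reached the 1% mean only through skin. IGHV1-22, IGHV1-72, IGHV1-75 and IGHV1-80 held 0.515%, 0.801%, 0.566% and 0.294% of skin clonotypes and reached it only through spleen. For these genes the filter favours the direction called, so the filtered calls are no support for a tissue difference.

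IGHV1-26 had the highest share in both tissues, 8.19% ± 4.90 of skin and 9.23% ± 2.28 of spleen clonotypes (SD, n = 4 each). IGHV9-3 came next in skin with 5, 1, 13 and 3 clonotypes, 7.40% ± 6.50, against 2.36% ± 0.880 in spleen. Its difference did not pass (edgeR log2 fold change 1.61 ± 0.70 SE, adjusted p = 0.130). IGHV1-53 held 5.95% ± 3.96 in skin and 5.52% ± 0.814 in spleen, IGHV1-64 4.88% ± 7.60 and 3.93% ± 1.64, and IGHV1-42 4.18% ± 3.30 and 0.875% ± 0.5002. IGHV1-55 was second in spleen with 7.94% ± 2.47, and had 1, 0, 8 and 1 clonotypes in skin (3.12% ± 4.27; edgeR log2 fold change -1.34 ± 0.71 SE, adjusted p = 0.242). IGHV1-82 held 3.796% ± 0.249 in spleen and 1.04% ± 1.21 in skin.

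Several high skin counts came from near copies of 1 rearrangement. The 13 IGHV1-7 clonotypes of skin 2 formed 1 lineage, the one of its largest clonotype. The 11 IGHV5-6 clonotypes, all in skin 2, also formed 1 lineage, and the 15 of IGHV1-84 in skin 2 formed 3. The 22 IGHV9-3 clonotypes of skin fell in 8 lineages, found in all 4 replicates. With lineages counted once, edgeR called 0 of 34 V genes, and 2 had an unadjusted p under 0.05.

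**Figure D5:**
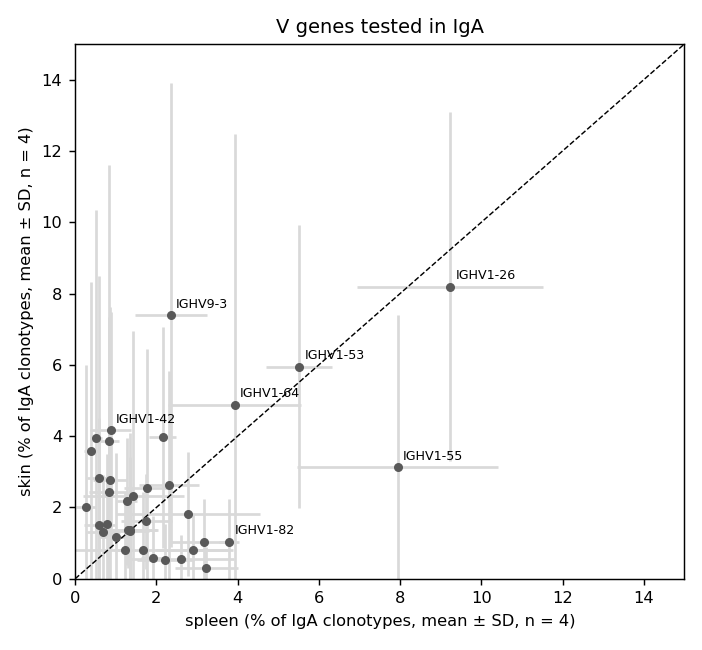
Share of IgA clonotypes (%) of the 36 V genes tested, skin against spleen; points are means over 4 replicates, grey bars the SD, and the dashed line marks equal shares. IGHV9-3 and IGHV1-42 lie above the line and IGHV1-55 and IGHV1-82 below it, with skin SDs mostly wider than the spleen SDs.

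By position along the locus, IGHV1-50 and above, the part of the J558 genes farthest from the constant genes, together held 26.0% to 39.2% of skin clonotypes and 47.4% to 53.7% of spleen clonotypes, over all copies. The ranges did not overlap, but of its 29 genes 16 were tested, 8 with a positive and 8 with a negative log2 fold change (median -0.42, against 0.15 over all 36), and 0 were called. With DESeq2 the split of the 16 was 1 positive and 15 negative, where 12 of all 36 tested genes were positive and 24 negative (median -0.52). IGHV1-49 and below held 28.8% ± 10.1 in skin and 22.3% ± 3.22 in spleen (SD, n = 4 each), with a median log2 fold change of 0.76 over 7 tested genes. Among these, IGHV1-7, IGHV1-15 and IGHV1-42 reached the 1% mean only through skin, and IGHV1-22 only through spleen. The medians therefore depend on the filter. Without a filter they were -1.88 over 25 genes here, -1.68 over 29 for IGHV1-50 and above, and -1.92 over all 138. Many of the 138 had 0 skin clonotypes, such as IGHV1-34 with 591 in spleen and a log2 fold change of -9.31. The medians without a filter therefore depend on skin depth and do not measure usage. The IGHV5 family had 2 tested genes and the IGHV14 family 3, and 0 were called. IGHV5-6 (log2 fold change 2.39) and IGHV14-1 (1.70) held 0.587% and 0.823% of spleen clonotypes, so they reached the 1% mean only through skin. IGHV5-17 was at 0.017, and IGHV14-2 and IGHV14-3 were at -0.022 and -0.596. The whole IGHV5 family held 5.85% of skin and 5.91% of spleen clonotypes. Of the B-1a associated genes IGHV11-1, IGHV11-2 and IGHV12-3, 0 of 324 skin clonotypes were found. Taken as independent, the 324 allow a share of up to 0.926% by counting error alone (3 of the total). Near copies of 1 rearrangement are not independent, so the limit is higher than that. In spleen these genes held 0.113% ± 0.0860 of clonotypes (SD, n = 4), so a difference was not detectable at this depth. IGHV7-1 and IGHV7-3, linked to natural antibodies, had 2 skin clonotypes.

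IgM of the same replicates served to ask whether the tissue difference was larger in IgA, with both isotypes drawn to 1351 copies. The 10 largest IgM clonotypes held 20.5%, 26.8%, 20.4% and 37.0% of IgM copies in skin and 5.71%, 9.98%, 4.34% and 3.65% in spleen. IgA exceeded IgM by 73.0, 67.9, 64.2 and 39.99 points in skin and by 20.5, 9.37, 13.3 and 13.99 points in spleen. The gaps did not overlap, with a difference of 47.0 points, but the exact permutation p of 0.0286 gave an adjusted p of 0.0571 over 4 measures and did not pass. That p is the smallest 4 against 4 can give, so over 4 measures full separation of 1 measure cannot pass by itself. The adjusted p therefore does not show that the gaps were alike. V mismatch was 2.59 points higher in IgA than in IgM in both tissues (SD 0.667 in skin and 0.166 in spleen; exact permutation p = 1). CDR3 length did not pass (exact permutation adjusted p = 0.571), and IgA exceeded IgM in clonotypes per lineage by 0.233 in skin and 0.501 in spleen (exact permutation adjusted p = 0.0571).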

How the data were processed

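Per the labels' protocols, heavy-chain transcripts were amplified from RNA with molecular identifiers of 10 nucleotides by a commercial service. The authors deposited, per library, each sequence with its gene calls and a whole-number count; whether the count is of identifiers or of reads is not stated. The deposited tables also give V mismatches and aligned V length. The build was mm10 per the submitters' processing notes. The aligner, not given in the sources used here, could shape the gene calls. Skin and spleen each had 4 replicates with 2 technical libraries, which were added.

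Computed here were clonotypes, lineages, means over 100 draws of 2229 copies, exact two-sided permutation tests over 70 arrangements with Benjamini-Hochberg adjustment per family of measures, and 95% intervals by inverting that test; they cover the spread between replicates. V genes with a mean share of 1% or more were tested with edgeR 4.0.16 (R 4.3.3), with DESeq2 1.42.0 as an alternative. Other values came from numpy 2.4.6 and pandas 2.3.3 under Python 3.11.15. The scripts were tested on simulated data.

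Named were V genes called, the 5 with the highest share in each tissue, all J genes and V families, fixed V gene lists, and the 3 largest clonotypes per skin and 1 per spleen replicate found in both technical libraries. V genes called only under an alternative, or with many near copies, were named after their values were seen. Members, lists and tests were chosen with earlier results of these data known.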

Additional observations from a re-analysis of the deposited data

Results flagged for a closer look

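Of 72 sets of 4 replicate values examined, 4 had 1 replicate far from the other 3 by Dixon's test, which chance gives in about 1 in 20. Net CDR3 charge in spleen was -0.174 in replicate 4 and -0.387 to -0.358 in the others. CDR3 aspartate was 12.8% of residues in skin 1 and 9.33% to 9.56% in the other skin replicates. IGHJ2 was 34.0% of clonotypes in spleen 2 and 24.8% to 25.7% in the other spleens. IGHV6 was 3.23% of clonotypes in skin 4, from 3 IGHV6-3 clonotypes, and 0% in the other 3 skin replicates. With 3 values at 0 any other value is flagged, so the rate of 1 in 20 does not hold for this set.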

How the results depend on the processing

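Differences are skin minus spleen. Distinct clonotypes, distinct lineages and the share of the 10 largest clonotypes kept their direction and passed under every alternative run except the replicate block. Leaving out single-copy clonotypes, or those not in both technical libraries, acts before the draw and cuts mainly skin. Distinct clonotypes fell from 63.1 to 29.6 and 13.6 in skin and from 848 to 752 and 637 in spleen. Those 2 alternatives are therefore no check on these measures. With the replicate number as a replicate block the differences were -785 clonotypes, -478 lineages, 67.4 points for the 10 largest and -136 effective clonotypes, each with an exact permutation p of 0.125, the smallest the block allows, so it cannot pass. The titles give the numbers as those of biological replicates but do not say whether they pair the tissues, so the block was not the main test. Same-number deviations in V gene shares correlated at -0.252, 0.182, -0.414 and 0.161. With a median of 6 skin clonotypes per tested gene they cannot decide on pairing. Exact clonotype sharing goes with paired numbers: 105 skin clonotypes were found in the same-number spleen and 5 in the others. Among the 10 largest per replicate these counts were 34 and 0. If the numbers pair the samples, no clone size call passes, since 4 pairs cannot. The effective number ranged from -156 to -127 over leaving out 1 replicate and lost its call without any 1 skin replicate. The single-copy share passed at -29.3 points for lineages, -52.5 without single-copy clonotypes, -51.3 for clonotypes found in both technical libraries and -17.6 in technical library 1; filters on copy number or on both libraries act before the draw and fix -52.5 and -51.3, since skin is drawn nearly whole. V mismatch passed at 1.19 points and the share at 5% or more at 17.0 points with lineages counted once. Both rest on lineages formed on all copies before the draw, and what unequal depth adds was not tested. Clonotypes per lineage reversed to -0.43 without single-copy clonotypes and to -0.61 for clonotypes in both libraries, by the same construction, and passed at 0.30 for IgA-only clonotypes and 0.25 without skin 4. V gene calls were 7 with DESeq2, 2 without a filter and 0 to 2 when 1 replicate was left out. No other cause of these changes was tested. Depth limits skin most: 50 to 97 IgA clonotypes per replicate leave wide intervals for gene shares, and rare V genes cannot be compared. Copies of 1 clonotype are not independent.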
